A study of Rattus norvegicus with 6 samples.

Results

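MicroRNA genes made up 363 of the 18166 genes measured in cultured precursor cells from newborn rat skin and nerve. They were all genes whose symbol is Mir followed by a number or starts with Mirlet7, and host genes ending in hg were left out. Genes were chosen by symbol, and probe sets were to be selected on their mean over the 6 arrays where a gene had several. Each of the 363 genes had exactly 1 probe set, so no measured value decided which were kept.

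Back skin gave the skin-derived precursors (SKPs) and sciatic nerve the Schwann cell precursors (NSCPs), both from newborn wild-type Sprague-Dawley rats. There were 3 independent isolates of each, with 1 expression array per isolate, so the replicates are separate isolates. The growth protocol gives SKPs as free spheres, seeded at 50000 cells/ml, with FGF2 (40 ng/ml), EGF (20 ng/ml) and B27 (2%). NSCPs grew on laminin (4 μg/ml) and poly-D-lysine (30 μg/ml) with neuregulin-1β at 25 ng/ml, forskolin at 5 μM and 2% N2. No genotype, transgene or further treatment separates the groups, and tissue of origin, medium and growth form cannot be told apart. The labels tell the groups by name, and the arrays bore the names out, since 8 of 8 Schwann lineage markers were higher in NSCPs and 9 of 9 dermal mesenchyme markers were lower. All 10 leukocyte markers were also lower in NSCPs, and their mean log2 level over the list was 9.59 to 10.62 on the SKP arrays and 4.96 to 5.20 on the NSCP arrays. All 7 proliferation markers were higher in NSCPs, while endothelial markers lay within background in both groups.

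MicroRNAs are short RNAs that guide Argonaute proteins to messenger RNAs and lower their translation and stability. They are cut from hairpins in long primary transcripts, first by Drosha and Dgcr8 in the nucleus and then by Dicer in the cytoplasm, and many hairpins share a transcript with neighbouring hairpins or lie in an intron of a host gene. Bases 2 to 8 of the mature strand, the seed, decide most of its target pairing, so genes with the same seed count as a family. The arrays were labelled by a whole-transcript method, so a value here is a log2 level of RNA at the microRNA gene's locus, not of the mature microRNA.

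Of the 363 genes, 344 had a mature sequence in the RefSeq table (GRCr8). The sequences of miR-17-92 and its paralogue clusters are shown first because the largest increase lay among them and because they fall into a few seed groups. Each is written 5′ to 3′ with the seed in capitals and the genes that encode it beside it.
miR-17-5p (Mir17 and Mir106a): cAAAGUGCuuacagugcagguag
miR-20a-5p (Mir20a): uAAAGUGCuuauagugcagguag
miR-20b-5p (Mir20b): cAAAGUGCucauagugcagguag
miR-106b-5p (Mir106b): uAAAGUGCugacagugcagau
miR-93-5p (Mir93): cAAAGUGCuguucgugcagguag
miR-18a-5p (Mir18a): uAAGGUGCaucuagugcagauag
miR-19a-3p (Mir19a): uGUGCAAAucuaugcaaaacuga
miR-19b-3p (Mir19b1 and Mir19b2): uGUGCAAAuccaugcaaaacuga
miR-92a-3p (Mir92a1 and Mir92a2): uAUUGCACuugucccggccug
miR-363-3p (Mir363): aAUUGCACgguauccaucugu
miR-25-3p (Mir25): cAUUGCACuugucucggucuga
The first 5 share 1 seed, miR-19a and miR-19b share another, and miR-92a, miR-363 and miR-25 share the last, while miR-18a has a seed of its own.

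The signal of microRNA loci was set against that of olfactory receptor genes, which are expected to be silent in these cells. The background was the 95th percentile of the mean log2 levels of 68 olfactory receptor genes (symbols starting Olr), which was 6.22. A mean above it was reached by 58 microRNA genes in SKPs (16%) and 53 in NSCPs (14.6%), against 55.0% and 52.4% of all genes. The share of olfactory receptor genes above it, 3 of 68 in each group (4.41%), is fixed by how the background was set. By array the share was 15.7%, 17.9% and 16.5% in SKPs and 16.3%, 14.0% and 14.6% in NSCPs, so the ranges of the groups overlapped. Both means were above background for 40 genes, only the SKP mean for 18, only the NSCP mean for 13, and neither for 292 (80.4%). The gene just inside was Mirlet7c1 with a higher group mean of 6.26, and the gene just outside was Mir3556b at 6.22. The share depends on where the background is set. It was 52.6% in SKPs and 51.5% in NSCPs with the 75th percentile of the olfactory receptor genes, 9.37% and 9.09% with the 99th, and 33.9% in SKPs and 30.0% in NSCPs against a background of 5.32 from olfactory and vomeronasal receptor genes together. A group mean not above 6.22 is called within background below, and a difference from it rests on a background level.

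NSCPs were compared with SKPs by limma over all 18166 genes, and a gene is called when its Benjamini-Hochberg adjusted p was under 0.05. Of the 363 microRNA genes, 128 were called (35.3%), against 43.7% of all genes. There were 58 called higher in NSCPs (16%, against 25.2% of all genes) and 70 called lower (19.3%, against 18.6% of all genes). The number higher was 38 without SKP array 3. Expression did not overlap between the groups for 158 microRNA genes (43.5%), against 56.6% of all genes. Among the 71 microRNA genes above background in a group, 15 were higher (21.1%) and 24 lower (33.8%), against 32.1% and 27.6% of all genes above background in a group. Differences of at least 2-fold were called for 13 genes higher and 43 lower in NSCPs, that is 3.58% and 11.8% of the microRNA genes, beside 7.45% and 9.98% of all genes. Of those, 10 of the higher and 23 of the lower were within background in both groups. The median difference was 0.08 on the log2 scale over microRNA genes and 0.14 over all genes, and the median standard error (SE) was 0.17 and 0.15.

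**Figure D1:**
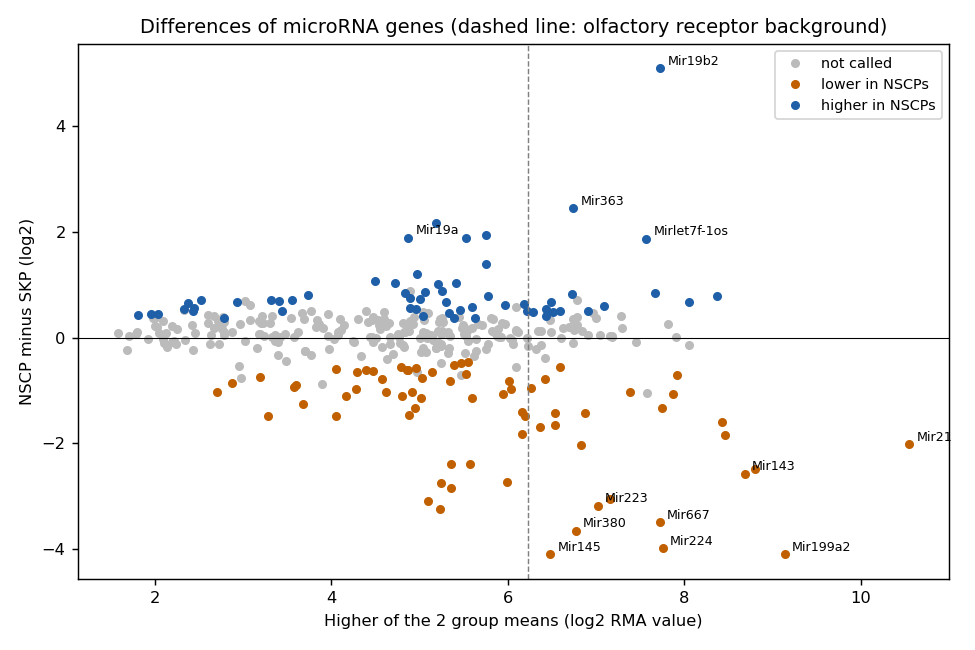
Each point is 1 of the 363 microRNA genes, with the higher of its group means (log2) on the x axis and the difference NSCP minus SKP (log2) on the y axis. Colours show the call, and the dashed line is the olfactory receptor background of 6.22. Most points lie left of the line, and right of it Mir19b2 stands highest at 5.10 while Mir145 and Mir199a2 lie lowest at -4.11.

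The cluster miR-17-92, a polycistron that Myc and E2f factors are known to induce and that favours proliferation, was represented by all 6 of its genes on chromosome 15. Of the 6, 4 were higher in NSCPs and none was lower, beside 16% and 19.3% of all microRNA genes and 25.2% and 18.6% of all genes. All 6 were within background in both groups, so the sizes rest on low levels. Mir19a read 3.03, 2.82 and 3.09 on the SKP arrays and 4.94, 5.05 and 4.62 on the NSCP arrays, a difference of 1.89 ± 0.15 (SE, adjusted p = 1.59e-05). Mir18a rose by 1.01 ± 0.15 (adjusted p = 0.000591), Mir92a1 by 0.61 ± 0.12 (adjusted p = 0.00343) and Mir20a by 0.55 ± 0.12 (adjusted p = 0.00607). For these 4 genes every NSCP array was above every SKP array. Mir17 did not pass the test, with 4.81 ± 0.16 in SKPs and 4.68 ± 0.06 in NSCPs (SD, n = 3) and a 95% interval of the difference from -0.42 to 0.15. Mir19b1 read 2.58, 2.53 and 2.25 in SKPs and 2.37, 2.89 and 3.96 in NSCPs, and its difference of 0.62 ± 0.35 was not called (adjusted p = 0.179). NSCP array 3 was high and NSCP array 1 lay among the SKP arrays, and without NSCP array 1 the adjusted p was 0.0391.

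The paralogue cluster miR-106a-363 on the X chromosome held the largest difference of all called microRNA genes. Mir19b2 read 2.53, 2.45 and 2.89 on the SKP arrays and 7.75, 7.58 and 7.85 on the NSCP arrays. The difference was 5.10 ± 0.15 on the log2 scale (34.4-fold, adjusted p = 7.76e-08), and the SKP level was within background. Mir363 read 4.29, 4.24 and 4.33 in SKPs and 7.02, 6.42 and 6.79 in NSCPs, so it too crossed the background, with a difference of 2.45 ± 0.16 (5.47-fold, adjusted p = 5.26e-06). Both genes were above background on all 3 NSCP arrays and on none of the SKP arrays. Mir92a2 (1.88 ± 0.15, adjusted p = 1.83e-05) and Mir20b (1.39 ± 0.22, adjusted p = 0.00103) were higher in NSCPs while within background in both groups. Mir106a, with 2.92 ± 0.28 in SKPs and 3.20 ± 0.52 in NSCPs, was not called and its groups overlapped.

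The hairpins of Mir19b1 and Mir19b2 show how close these loci are in sequence while their values were far apart. The mature arms are in capitals.
Mir19b1: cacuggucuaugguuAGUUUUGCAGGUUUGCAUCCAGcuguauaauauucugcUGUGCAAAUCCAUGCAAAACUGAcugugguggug
Mir19b2: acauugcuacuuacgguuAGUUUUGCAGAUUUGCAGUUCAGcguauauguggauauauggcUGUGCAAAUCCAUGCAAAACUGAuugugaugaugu
They are 87 and 96 nucleotides long and identical at 75 of 97 aligned positions (77.3%), and their 3p arms are the same sequence. The probe sequences were not used here, so the share of signal that a probe set of 1 copy takes from the other cannot be stated, and the identity of each is uncertain to that extent. The same holds for Mir92a1 and Mir92a2, which encode 1 mature miR-92a-3p from hairpins identical at 63.8% of aligned positions, and for Mir17 and Mir106a, for which RefSeq lists the same miR-17-5p.

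The third cluster, miR-106b-25, lies on chromosome 12 in an intron of Mcm7, a subunit of the replicative helicase. Mcm7 itself was higher in NSCPs by 2.19 ± 0.15 (adjusted p = 6.72e-06), from 7.75 ± 0.14 to 9.95 ± 0.23 (SD, n = 3). The microRNA loci within it had smaller differences, with 0.49 ± 0.15 for Mir25 (adjusted p = 0.0261), 0.38 ± 0.13 for Mir93 (adjusted p = 0.0373) and 0.13 ± 0.14 for Mir106b, which was not called. The mean of Mir25 was 5.79 in SKPs and 6.28 in NSCPs, the latter just above background. Mir93 and Mir106b were within background in both groups. The calls of Mir25 and Mir93 are weak. Mir25 lost its call without array 1 or 2 of either group (adjusted p 0.0654 to 0.0795), and Mir93 without SKP array 1 or 2 or NSCP array 2 or 3 (0.0656 to 0.119). With the replicate number as a block, Mir25 had an adjusted p of 0.0537.

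**Figure D2:**
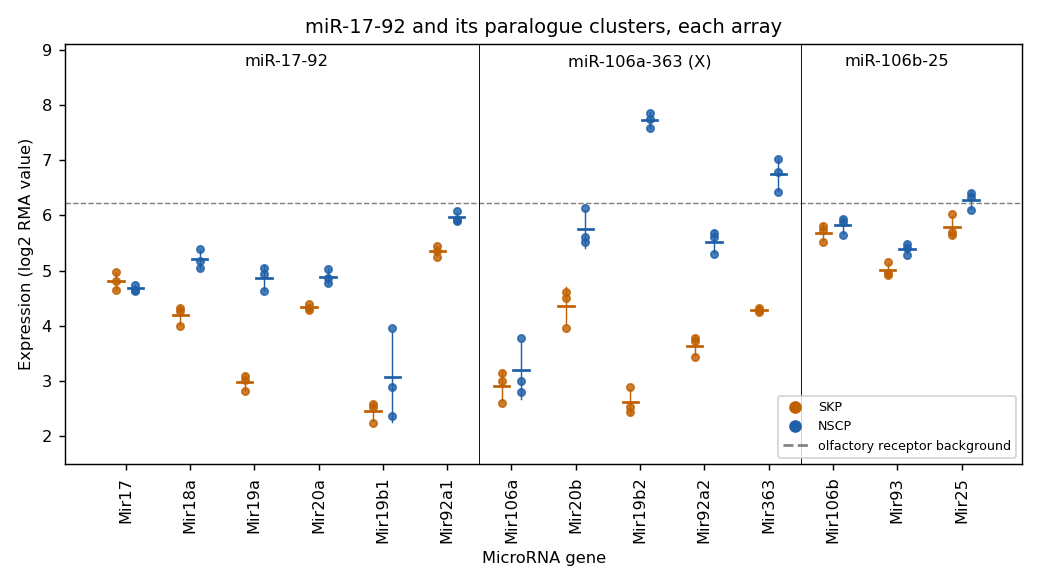
Points are log2 levels on each array for the genes of miR-17-92 and its paralogue clusters, horizontal bars are group means, vertical bars are SD (n = 3) and the dashed line is the background of 6.22. The means of Mir19b2 and Mir363 cross the background in NSCPs, as does that of Mir25 by a small margin. The means of the 6 miR-17-92 genes stay below it in both groups.

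By seed, the 6 genes with AAAGUGC (Mir17, Mir20a, Mir20b, Mir93, Mir106a and Mir106b) included 3 called higher and differences from -0.13 to 1.39. The 6 with AUUGCAC (Mir25, Mir32, Mir92a1, Mir92a2, Mir92b and Mir363) included 4 called higher and ranged from -0.26 to 2.45. The 3 with GUGCAAA (Mir19a, Mir19b1 and Mir19b2) included 2 called higher, with a median of 1.89. No gene of these 3 seed groups was called lower. Over all microRNA genes, 16% were called higher and 19.3% lower, and over all genes 25.2% and 18.6%.

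The let-7 family, known for restraining growth and pluripotency genes, gave a mixed picture with 12 genes measured. Mirlet7a1, Mirlet7f-1 and Mirlet7f-1os were higher in NSCPs, Mirlet7c1 was lower, and 8 were not called. Beside this, 16% of microRNA genes and 25.2% of all genes were called higher, and 19.3% and 18.6% lower. The mature 5p sequences of Mirlet7a1, Mirlet7f-1os and Mirlet7c1 differ by few bases outside the shared seed, which is in capitals. Mirlet7f-1 is listed with another mature sequence and does not carry that seed.
let-7a-5p (Mirlet7a1): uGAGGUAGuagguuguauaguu
let-7f-5p (Mirlet7f-1os): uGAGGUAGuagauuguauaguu
let-7c-5p (Mirlet7c1): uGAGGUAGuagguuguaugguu
The 3 higher genes lie together on chromosome 17. Mirlet7f-1os, the locus at which RefSeq places let-7f, read 5.68, 5.08 and 6.33 in SKPs and 8.41, 6.41 and 7.88 in NSCPs, a difference of 1.87 ± 0.49 (adjusted p = 0.0147). NSCP array 2 was only just above the highest SKP array, and the call was lost without NSCP array 1 or 3 (adjusted p = 0.0521 and 0.0512). Mirlet7f-1, which RefSeq gives as the antisense hairpin of miR-3596d, differed by 1.95 ± 0.44 within background (adjusted p = 0.00697). Mirlet7a1 read 6.70, 6.30 and 6.45 against 7.45, 6.70 and 7.12, a difference of 0.60 ± 0.20 (adjusted p = 0.038) with overlapping groups, and it lost its call without SKP array 2 or 3 or NSCP array 1 or 3 (adjusted p 0.094 to 0.111). Mirlet7d, the last gene of that cluster, was not called and read 5.85 ± 0.26 in SKPs and 5.88 ± 0.25 in NSCPs.

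Mirlet7c1 on chromosome 11 went the other way, from 6.02, 6.52 and 6.25 in SKPs to 5.55, 5.01 and 5.38 in NSCPs (-0.95 ± 0.18, adjusted p = 0.00309). Its cluster neighbour Mir99a, named after its values were seen, was lower as well, at 7.75 ± 0.38 in SKPs and 6.41 ± 0.24 in NSCPs (-1.34 ± 0.21, adjusted p = 0.000926). Mir98 missed the threshold with -0.39 ± 0.14 (adjusted p = 0.0505, and 0.0433 without SKP array 1). The remaining uncalled let-7 genes had differences of 0.46 for Mirlet7a-2, 0.41 for Mirlet7b, 0.31 for Mirlet7f2, 0.15 for Mirlet7i, -0.31 for Mirlet7e and -0.35 for Mirlet7c2. Of these, Mirlet7b passed without NSCP array 3 (adjusted p = 0.0417) and with the replicate block (0.0396).

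Genes that act on let-7 precursors were listed with 6 members, of which 2 were higher and 2 lower. Lin28b, an RNA-binding protein that blocks let-7 maturation, was higher by 0.47 ± 0.13 (adjusted p = 0.017), and Trim71, a let-7 target and ubiquitin ligase, by 0.51 ± 0.14 (adjusted p = 0.02), both within background in both groups. Tut4, which adds uridines to let-7 precursors, read 8.80, 8.94 and 8.98 in SKPs and 7.35, 6.59 and 7.01 in NSCPs, so it was lower by 1.93 on the log2 scale (3.8-fold, adjusted p = 5.82e-05). Tut7, its paralogue, was lower by 0.64 (1.56-fold, adjusted p = 0.00556), and Lin28a and Dis3l2 were not called. Among 11 textbook let-7 targets, 4 were higher and 3 lower, with Hmga2, a chromatin protein, at -1.60 ± 0.22 and Nras at 0.91 ± 0.15. Beside these counts, 25.2% of all genes were called higher and 18.6% lower. Of all genes above background in a group, the shares were 32.1% and 27.6%.

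The genes of miR-199a and miR-214, which Twist1 is known to drive in mesenchyme, held the largest decrease of the families. Only 2 genes were measured from a list of 5 symbols, and the large decrease was at 1 of them. The mature sequences from the neighbouring hairpins on chromosome 13 do not share a seed.
miR-199a-5p (Mir199a2): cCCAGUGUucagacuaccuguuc
miR-199a-3p (Mir199a2): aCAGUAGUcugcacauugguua
miR-214-3p (Mir214): aCAGCAGGcacagacaggcag
Mir199a2 read 9.31, 8.97 and 9.13 in SKPs and 5.19, 4.71 and 5.20 in NSCPs. That is a difference of -4.11 ± 0.17 (17.2-fold, adjusted p = 3.27e-07), from well above background to within it. Mir214 read 7.89, 8.04 and 7.81 against 7.37, 7.23 and 7.0, and stayed above background in both groups with a difference of -0.71 ± 0.14 (adjusted p = 0.00307). Both hairpins lie on the strand opposite to Dnm3, which was higher in NSCPs by 1.02 ± 0.15, from 7.65 ± 0.22 to 8.67 ± 0.12 (adjusted p = 0.00055). Twist1, a transcription factor of mesenchyme, was lower in NSCPs by 1.33 on the log2 scale (6.01 ± 0.61 to 4.67 ± 0.25, adjusted p = 0.00518) and within background in both groups. In cultures of mixed cells, fewer cells of a type and less RNA per cell cannot be told apart.

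The miR-29 genes, known for targeting collagen messages, were within background in both groups throughout. Mir29a was lower by 0.68 on the log2 scale (SKP 5.66, 5.13 and 5.79, NSCP 5.18, 4.59 and 4.76, adjusted p = 0.0302), its groups overlapped, and the call was lost without SKP array 1 or 3 or NSCP array 2 or 3 (adjusted p 0.08 to 0.107). Mir29b1 (0.38 ± 0.16), Mir29b2 (-0.24 ± 0.16) and Mir29c (-0.48 ± 0.20) were not called, though Mir29b1 passed without NSCP array 2 (adjusted p = 0.0484) and Mir29c with the replicate block (0.0437). Of all genes above background in a group, 27.6% were called lower and 32.1% higher. Of 14 textbook miR-29 targets, 9 were lower in NSCPs and 1, the DNA repair gene Tdg, was higher. The lower ones were mostly matrix genes, such as Fbn1 (-1.90), Col3a1 (-1.90) and Col1a1 (-0.95), the last 2 of which are also on the list of dermal markers.

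The pair Mir221 and Mir222 on the X chromosome, known for repressing the cell cycle inhibitor p27, was also within background. Mir221 read 5.59, 5.33 and 5.5 in SKPs and 5.20, 4.62 and 5.13 in NSCPs. Its difference of -0.49 ± 0.17 was only just called (adjusted p = 0.0489), and not without SKP array 1 or 3 or NSCP array 2 or 3 (0.0632 to 0.129), nor after renewed quantile normalization (0.0568) or median centring (0.0764). Mir222 had a difference of -0.40 ± 0.19 and was not called, except without SKP array 2 (adjusted p = 0.0196). Of 3 textbook targets, Cdkn1b (p27) was higher in NSCPs by 1.59 ± 0.17 (adjusted p = 0.000119) and Cdkn1c (p57) by 1.41 ± 0.34 (adjusted p = 0.00989). Kit was not called. Of all genes above background in a group, 32.1% were called higher.

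**Figure D3:**
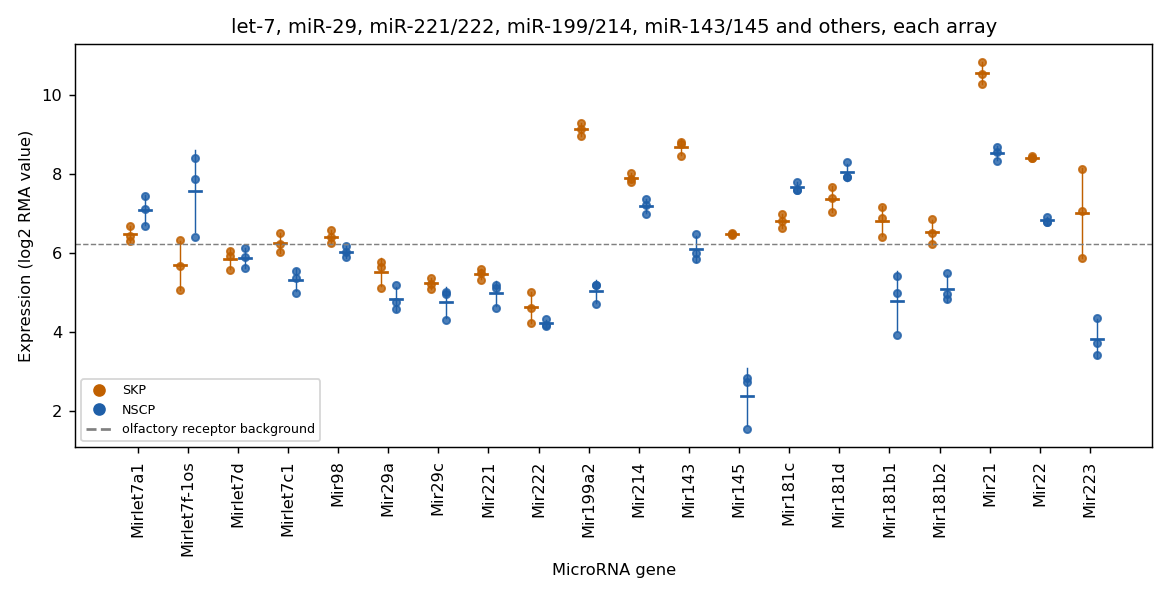
Points are log2 levels on each array for let-7, miR-29 and other named genes, with group means (horizontal bars), SD (vertical bars, n = 3) and the background of 6.22 (dashed). Mir199a2, Mir143, Mir145, Mir21 and Mir223 are separated with SKPs higher, and Mir181c and Mir181d with NSCPs higher.

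Outside these families, the genes with the largest differences that were above background in a group included more decreases than increases of large size. Mir145 and Mir143, neighbours on chromosome 18 known from smooth muscle and fibroblasts, were both lower in NSCPs. Mir145 read 6.51, 6.46 and 6.48 in SKPs and 2.74, 2.84 and 1.55 in NSCPs (-4.11 ± 0.30, adjusted p = 1.1e-05), and Mir143 read 8.46, 8.77 and 8.82 against 6.0, 6.49 and 5.85 (-2.57 ± 0.19, adjusted p = 9.77e-06). The groups were widely separated at both loci.

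Mir21, a locus active in many growing and stromal cells, read 10.83, 10.54 and 10.28 in SKPs and 8.56, 8.69 and 8.33 in NSCPs (-2.02 ± 0.17, 4.06-fold, adjusted p = 2.29e-05). Vmp1, the gene next to it, was not called (-0.09 ± 0.14, adjusted p = 0.629). Mir22 was lower by 1.59 on the log2 scale, with SKP values of 8.45, 8.42 and 8.40 and NSCP values of 6.93, 6.79 and 6.78 (adjusted p = 7.99e-06). These 2 genes were among the 8 named for the mean value of their probe set over the arrays, with Mir761, Mir185 and Mir99b, which were not called, and Mir301a, Mir181d and Mir214. That mean serves only to choose names, because each probe set responds to its target in its own way and its value does not rank genes by RNA level.

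Mir223, a gene of myeloid cells, read 8.13, 5.87 and 7.06 in SKPs and 4.37, 3.72 and 3.42 in NSCPs (-3.18 ± 0.50, adjusted p = 0.000987). Its SKP values spread widely, with the first array highest and the second lowest. Mir142, a pan-leukocyte gene, had 5.90, 4.30 and 4.83 in SKPs and 3.93, 3.65 and 4.03 in NSCPs (-1.14 ± 0.35, adjusted p = 0.0276). Mir511 lies in the macrophage receptor gene Mrc1 and, named after its values were seen, read 5.51, 4.53 and 4.81 against 3.65, 3.64 and 3.55. The mean of the 10 leukocyte markers ran in the same order over the SKP arrays, at 10.62, 9.59 and 9.95. Its part in these results was not tested. Mir142 and Mir511 were within background in both groups, as were Mir146a and Mir150, also listed as leukocyte genes and not called.

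The miR-181 genes share a seed but not a direction, as the 5p strands and their values show.
miR-181a-5p (Mir181a2 and Mir181a-1): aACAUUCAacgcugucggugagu
miR-181b-5p (Mir181b1): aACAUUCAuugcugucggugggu
miR-181c-5p (Mir181c): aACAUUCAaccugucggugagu
miR-181d-5p (Mir181d): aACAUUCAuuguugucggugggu
On chromosome 19, Mir181c read 6.83, 6.99 and 6.64 in SKPs and 7.59, 7.81 and 7.60 in NSCPs (0.85 ± 0.14, adjusted p = 0.00115). Its neighbour Mir181d was also higher (0.68 ± 0.19, adjusted p = 0.0178), but not without SKP array 3 (0.0635) or NSCP array 2 (0.0638). On chromosome 13, Mir181b1 read 7.16, 6.41 and 6.90 against 5.00, 3.94 and 5.43 (-2.03 ± 0.36, adjusted p = 0.00187). On chromosome 3, Mir181b2 (-1.43 ± 0.21, adjusted p = 0.000729) and Mir181a2 (-0.78 ± 0.18, adjusted p = 0.00767), named after their values were seen, were lower too. Mir181a2 was within background in both groups. So the copies at 1 locus were higher and those at the other loci lower or, for Mir181a-1 (-0.07 ± 0.22), not called. Of the 68 seeds shared by at least 2 microRNA genes, 11 had 2 or more calls, and 2 of these 11, this one and the let-7 seed, had calls in both directions.

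The miR-23/27/24 genes, at 2 loci, were higher or not called. At the chromosome 19 locus Mir24-2 (1.07 ± 0.13, adjusted p = 0.000235), Mir23a (0.78 ± 0.18, adjusted p = 0.00685) and Mir27a (0.83 ± 0.28, adjusted p = 0.042) were all higher in NSCPs. Of these, Mir24-2 and Mir23a were within background in both groups. Mir27a had 1 low SKP array at 5.17 and lost its call without any single NSCP array (adjusted p 0.0699 to 0.136) and with the replicate block (0.0573). At the chromosome 17 locus Mir27b was higher by 0.51 ± 0.15 (adjusted p = 0.0271, and 0.0667 to 0.0931 without SKP array 2 or 3 or NSCP array 1 or 3), while Mir23b (0.03 ± 0.14) and Mir24-1 (0.12 ± 0.19) were not called. Mir3074, antisense to Mir24-1, was higher by 0.55 ± 0.12 (adjusted p = 0.00694).

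Lists for other cell types were counted in the same way, beside 35.3% called over all microRNA genes and 43.7% over all genes. Of 12 neural genes, Mir9-2 (1.03 ± 0.18), Mir138-1 (0.75 ± 0.16) and Mir338 (0.68 ± 0.16) were higher and Mir128-1 (-0.62 ± 0.14) was lower, and of these only Mir338, a gene of myelinating glia, was above background in a group. Of 10 epithelial genes 2 were higher (Mir182 and Mir200c), and of 4 muscle genes 1 (Mir1), all within background in both groups. Of 5 genes embedded in Hox clusters, Mir196b was lower (-1.41 ± 0.17, adjusted p = 0.000213) and Mir10a higher (0.54 ± 0.18, adjusted p = 0.0366), each within background. Neither of the 2 miR-15/16 genes measured was called.

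The largest group of neighbouring genes with calls lay in the imprinted Dlk1 to Dio3 interval of chromosome 6, a region whose maternally expressed transcripts, starting with the long RNA Meg3, carry many microRNA hairpins. This interval was singled out after its values were seen. Of 59 microRNA genes that RefSeq places there, 53 were measured, and 30 were lower in NSCPs, none higher and 23 not called. Their median difference was -0.75, with a range from -3.66 to 0.34. The other 310 microRNA genes had 58 calls higher and 40 lower and a median of 0.13. The mean log2 level over the 53 genes was 4.69, 5.05 and 4.61 on the SKP arrays and 3.77, 3.88 and 3.72 on the NSCP arrays, so the second SKP array was highest and the groups did not overlap. Only 9 of the 53 were above background in SKPs and 3 in NSCPs, and 7 of those 9 were lower. Between 25 and 31 genes of the interval were lower when 1 array was left out, and 23 of the 30 held their call whichever array was left out.

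Within the interval the sizes were uneven. Mir380 read 6.67, 7.23 and 6.40 in SKPs and 3.26, 3.23 and 2.85 in NSCPs (-3.66 ± 0.22, adjusted p = 2.98e-06). Mir667 read 7.31, 8.37 and 7.48 against 3.94, 3.87 and 4.86 (-3.50 ± 0.33, adjusted p = 5.03e-05), and Mir382 read 6.79, 7.65 and 7.02 against 4.01, 4.41 and 3.89 (-3.05 ± 0.23, adjusted p = 1.32e-05). At these 3 loci SKPs were above and NSCPs within background on every array. Others lower by over 6-fold, such as Mir300 (-3.24), Mir539 (-3.09), Mir377 (-2.84), Mir154 (-2.75) and Mir493 (-2.74), were within background in both groups. Mir665 stayed above background on all 6 arrays with a smaller difference (-1.02 ± 0.13). Mir770 (0.34 ± 0.15), Mir540 (0.21) and Mir127 (-0.04 ± 0.13) were not called.

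Strand and flanking genes gave further values. Of 44 genes on the strand of Meg3, 28 were lower with a median of -0.92, and of 9 on the opposite strand, Mir3579 and Mir3592 were lower and the median was -0.02. These 2 lie antisense to Mir380 and Mir382. Dlk1, the paternally expressed flanking gene, was lower in NSCPs by 2.60 on the log2 scale (9.27 ± 0.51 to 6.67 ± 0.52, adjusted p = 0.000187), and Meg3 by 1.55 (6.66 ± 0.64 to 5.11 ± 0.58, adjusted p = 0.00813). Dio3 at the far end was not called (-0.24 ± 0.20) and was within background. Genes of the interval with 1 seed in common included Mir410 (-2.39), Mir494 (-1.48) and Mir496 (-1.47), all lower, whose 5p strands share the seed in capitals.
miR-410-5p (Mir410): aGGUUGUCugugaugaguucg
miR-494-5p (Mir494): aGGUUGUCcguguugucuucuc
miR-496-5p (Mir496): aGGUUGUCcaugguguguuc

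**Figure D4:**
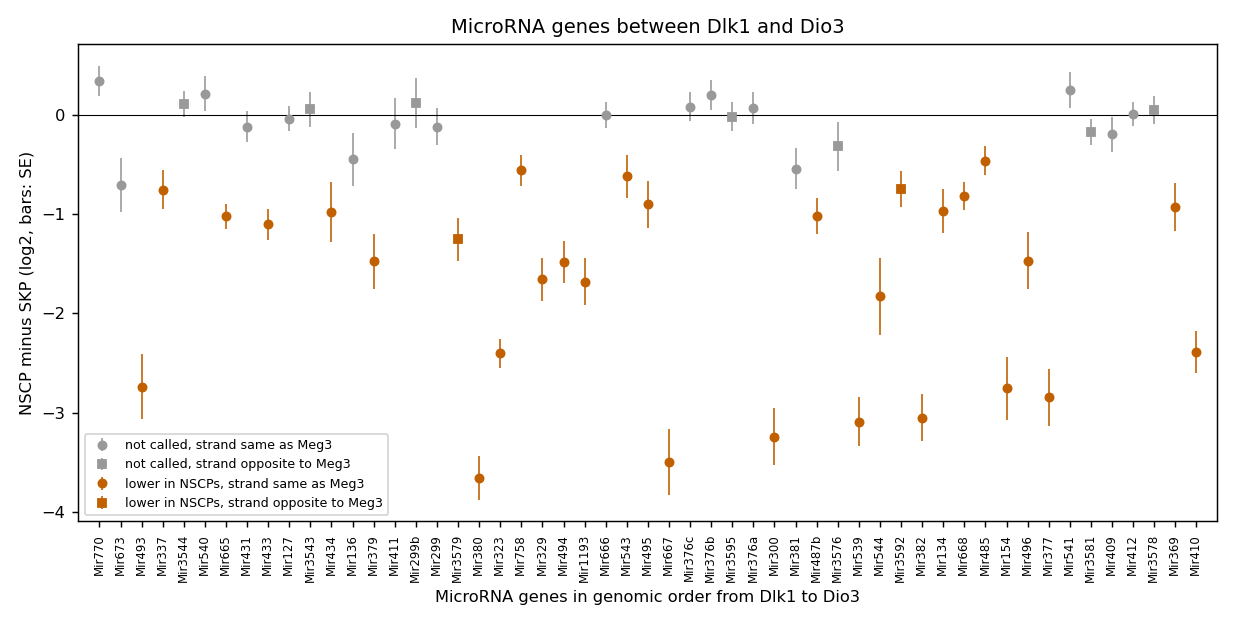
Differences NSCP minus SKP (log2, bars are SE) of the 53 microRNA genes between Dlk1 and Dio3, in genomic order but not to scale. Colour shows the call and shape the strand relative to Meg3. No gene was called higher, the lowest lies at -3.66, and 7 of the 9 squares (opposite strand) are not called.

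Neighbouring microRNA genes were also set side by side. Genes within 10 kb of each other on 1 strand formed 53 clusters with 185 measured genes, and 33 clusters had at least 1 call. Only the 15 clusters with 2 or more calls could have had calls in both directions, and 0 of them did. With a distance of 50 kb it was 0 of 18. Of 41 pairs of overlapping hairpins on opposite strands, both were called in 7, always in the same direction, such as Mir338 with Mir3065 and Mir218-1 with Mir3565. No source used here says whether the labelling kept the strand, so the RNA of such partners cannot be told apart.

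MicroRNA genes inside a host gene were set beside that host. There were 93 microRNA genes in a measured host on the same strand, in 71 hosts. Both were called in 11 pairs, 9 of them in the same direction, the host alone in 36, the microRNA gene alone in 9 and neither in 37. Beside these counts, 35.3% of all microRNA genes and 43.7% of all genes were called. As a description across these pairs, which share libraries and in part a host, Pearson's r of the differences was 0.47 and Spearman's rho 0.32. Over the 22 pairs with the microRNA gene above background they were 0.63 and 0.45, and over 25 pairs on opposite strands r was -0.13.

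In some pairs both genes were called in 1 direction. Mir224 read 8.03, 7.70 and 7.54 in SKPs and 4.16, 3.76 and 3.37 in NSCPs (-3.99 ± 0.21, adjusted p = 1.52e-06), and its host Gabre, a GABA receptor subunit, was lower by 4.30 on the log2 scale (8.73 ± 0.03 to 4.43 ± 0.37). Mir218-1 read 8.40, 9.49 and 8.53 against 6.36, 6.26 and 6.30 (-2.50 ± 0.26, adjusted p = 8.53e-05) and lies in the guidance gene Slit2 (-2.21 ± 0.20), for which the strand was not given. Mir301a, higher by 0.78 ± 0.13 (adjusted p = 0.00161), lies in Ska2, a kinetochore gene that was higher by 1.57 ± 0.22. Mir338 was higher by 0.68 ± 0.16 (adjusted p = 0.00964) in Aatk, a neural kinase gene that was higher by 4.34 ± 0.15. Mir511 and Mir592, both within background, were lower with Mrc1 and Grm8.

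In other pairs the calls differed. Mir483 lies in the growth factor gene Igf2, which was lower by 2.12 on the log2 scale, and read 7.12 ± 0.06 in SKPs and 7.30 ± 0.26 in NSCPs without a call. Mir770 in Meg3 and Mir99b in Spaca6 were likewise not called while their hosts were lower. Opposite calls were seen for Mir582 (-0.86, within background in both groups) with Pde4d (1.15) and Mir191 (0.40) with Dalrd3 (-0.44). These pairs were named after their values were seen.

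**Figure D5:**
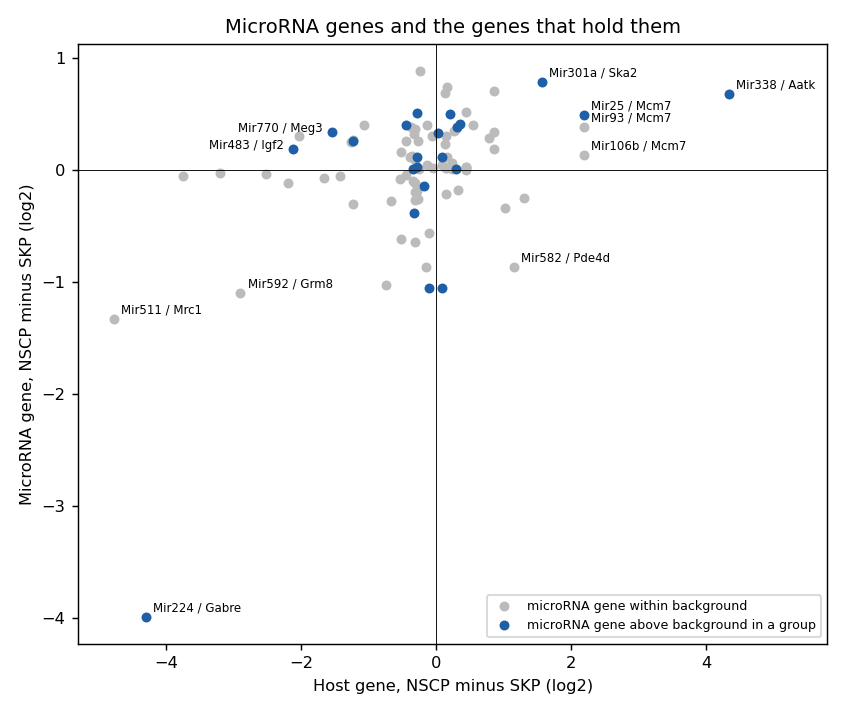
Each point is 1 of 93 microRNA genes on the strand of a measured host gene, with the host's difference NSCP minus SKP (log2) on the x axis and the microRNA gene's on the y axis. Blue points are above background in a group. Mir224 and Gabre lie far down on both axes, while most points spread along the host axis near 0 on the microRNA axis.

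Genes of the microRNA pathway itself were above background almost throughout, and those of the nuclear steps that were called were all higher in NSCPs. Of 9 such genes, all above background, 5 were higher and none lower. Of all genes above background in a group, 32.1% were called higher and 27.6% lower. Drosha, the nuclear RNase, read 9.25, 9.41 and 9.34 in SKPs and 9.92, 9.91 and 9.84 in NSCPs (0.56 ± 0.11, adjusted p = 0.00402). Its partner Dgcr8 was higher by 0.47 ± 0.12 (adjusted p = 0.0105), the export receptor Xpo5 by 0.37 ± 0.11 (adjusted p = 0.029), its GTPase Ran by 1.13 ± 0.17 (adjusted p = 0.000653) and Hnrnpa1, which binds the Mir18a hairpin, by 1.24 ± 0.18 (adjusted p = 0.000627). The groups did not overlap at Drosha, and the differences of Drosha, Dgcr8 and Xpo5 were small, at 1.47-fold, 1.39-fold and 1.29-fold.

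Of 12 genes of the cytoplasmic steps, Dicer1 was higher by 0.68 ± 0.13 (adjusted p = 0.00282), and the helicase Mov10 (-1.70 ± 0.11, adjusted p = 4.72e-06) and the decapping enzyme Dcp2 (-0.63 ± 0.18, adjusted p = 0.0196) were lower. The Argonaute genes measured, Ago1, Ago3 and Ago4, were not called. Of 5 transcription factors known to act on the families, Mycn was higher by 2.55 ± 0.15 (4.95 ± 0.10 to 7.5 ± 0.23, adjusted p = 2.34e-06), E2f1 by 1.27 ± 0.17 and E2f3 by 0.45 ± 0.12. Myc was not called (0.36 ± 0.16). Of 5 textbook miR-17-92 targets, Cdkn1a, the cell cycle inhibitor p21, was lower (-1.54 ± 0.17, adjusted p = 0.000134), as was the pro-apoptotic Bcl2l11 (-0.49 ± 0.16, adjusted p = 0.0377), E2f1 was higher, and Ccn2 and Phlpp2 were not called. Beside the counts of these lists, 32.1% of all genes above background in a group were called higher and 27.6% lower. The target lists were counted only, and no link between a locus and its targets was tested.

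Base composition of the hairpin had little relation to the signed difference between groups, but it went with the mean level. Over the 330 genes with a hairpin sequence in the RefSeq table, GC content and the difference NSCP minus SKP had a Pearson's r of 0.08 and a Spearman's rho of 0.12. These are descriptions across genes, which share the same arrays and are not independent replicates.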

How the data were processed

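The deposited values are on a log2 scale, and the authors made them with RMA in oligo (versions not given), per the submitters' processing notes. RMA corrects background, equalizes the arrays' distributions and summarizes probes, so a shift of all RNA in 1 group would not be seen. The label protocols give RNeasy extraction and whole-transcript cDNA from 400 ng of total RNA. Sources used here name no genome build for the array design and no array batches. The growth text covers both cultures in 1 run-on passage, in which B27 was assigned to SKPs.

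The table held 36685 probe sets, of which 18511 had 1 platform symbol, 575 several and 17599 none. Probe sets with several symbols were left out. The probe set with the highest mean was kept per gene, leaving 18166 genes, and no value was filtered or normalized again. The test was limma 3.58.1 (R 4.3.3), 2-sided, by lmFit followed by eBayes. P-values were adjusted by Benjamini-Hochberg across the 18166 genes. Folds are 2 to the power of the log2 difference. The number of arrays limits the precision. The script was tested on simulated data. Sequences, strands and host spans came from RefSeq tables (GRCr8) matched by Entrez ID, and all 363 genes had an entry, 352 with a strand. Parsing and alignment of hairpins used Python 3.11.15 with pandas 2.3.3 and Biopython 1.88, and figures matplotlib 3.10.9.

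The microRNA genes, families and lists were chosen with earlier results of these data known. Genes were named by rule: all members of the families; the 10 largest differences in each direction among called genes above background in a group and without overlap; the 8 highest means; called members of the other lists; and hosts of named genes. Others are said to be named after their values were seen. Alternatives covered each array left out, the replicate number as a block, scaling, a filter on dim genes, probe set choice, priors, array weights, thresholds and the background.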

Additional observations from a re-analysis of the deposited data

How the results depend on the processing

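No alternative reversed the direction of a called difference among the 55 named microRNA genes. The balance of the counts did change, since more genes were higher than lower with median centring, array weights or the filter on dim genes. Of the 128 called microRNA genes, 87 held their call with each array left out in turn (30 higher and 57 lower). The number higher was 58 and ran from 38 to 49 with 1 array left out, the number lower was 70 and ran from 63 to 72, family genes higher were 13 and ran from 10 to 12, family genes lower were 5 and ran from 3 to 6, and genes lower between Dlk1 and Dio3 were 30 and ran from 25 to 31. Family genes lower were 3 without replicate 3 of the SKPs and without replicate 2 or 3 of the NSCPs. A filter on the mean level, which removes most microRNA genes, left 13 higher and 12 lower, with 2 and 3 among the families and 2 between Dlk1 and Dio3. An adjusted p under 0.01 gave 28 higher, and 3 family genes lower. A test against a 2-fold change gave 5 higher, 19 lower, 4 and 1 among the families and 10 between Dlk1 and Dio3. Adjustment over all probe sets gave 38 higher, and 3 family genes lower. Median centring moved the median difference of all genes by 0.07 and gave 79 higher and 66 lower, and array weights gave 82 and 80.

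No label says that the replicate numbers pair the isolates. Deviations of same-numbered arrays from their group means correlated at 0.0372, 0.0501 and 0.0283. Such values cannot settle whether same-numbered isolates shared a litter or day. With the replicate block, 53 genes were higher and 72 lower, and 117 of the 128 calls were kept. Among the named genes, Mir27a and Mir25 lost their call with the block and Mirlet7b and Mir29c gained one.

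The share above background was 16% in SKPs and 14.6% in NSCPs. It was 9.37% and 9.09% with the 99th percentile of olfactory receptor genes, 52.6% and 51.5% with the 75th, 13.8% and 12.4% when every array had to be above, and 33.9% and 30.0% with vomeronasal receptor genes added, an alternative chosen after seeing the data, as was the count between Dlk1 and Dio3.

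With 3 arrays a group, small differences are hard to detect, and by the 95th percentile most microRNA loci lay within background, where folds rest on background levels. The values do not measure mature microRNAs, and cross-signal between copies was not tested.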

Other observations

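Among microRNA genes outside the families and named rule, chosen here after their values were seen, Mir30c2 and Mir30a, neighbours on chromosome 9, were higher in NSCPs by 2.17 ± 0.26 (adjusted p = 0.000183) and 1.04 ± 0.24 (adjusted p = 0.00772) by limma. Mir30c2 read 3.20, 3.08 and 2.78 in SKPs and 5.72, 4.63 and 5.21 in NSCPs, and both genes were within background in both groups. Mir674 read 8.23, 8.54 and 8.60 in SKPs and 6.51, 6.53 and 6.82 in NSCPs (-1.83 ± 0.15, adjusted p = 1.92e-05). It was above background on all 6 arrays. Mir31 was lower by 1.43 on the log2 scale (6.88 ± 0.37 to 5.44 ± 0.32, adjusted p = 0.000913), and so was its antisense partner Mir3554. Apart from the genes with 1 symbol, 21 probe sets carried several symbols that include a microRNA gene. Of these 12 were above background in a group and 9 were called in a fit over all 36685 probe sets. The share called over all probe sets is not given here, and over the 18166 genes of the main fit it was 43.7%.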
